A study of Drosophila melanogaster with 8 samples.

Results

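RNA from flies with mutant mitochondrial DNA (mtDNA) and FOXO knockdown was compared, across all genes, with RNA from flies with mutant mtDNA alone. The comparison rests on 4 of the 8 libraries of the series, taken by genotype label: replicates 1 and 2 of mutant mtDNA and replicates 1 and 2 of mutant mtDNA with FOXO knockdown. The remaining 4 libraries carried control mtDNA, 2 of them without and 2 with FOXO knockdown. All are labelled as intestinal stem cells of Drosophila melanogaster, and RNA was recovered with the poly(A)-binding protein on anti-FLAG beads from fixed, sonicated material. The mtDNA mutation, the knockdown construct, its driver, the cells that carried the tagged protein, and the age, sex and number of flies per library are not given in the sources used here. Nothing says that replicates came from separate flies, so p-values measure only the spread between these libraries, which may be technical.

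Intestinal stem cells divide to replace the absorptive enterocytes and the hormone-secreting enteroendocrine cells of the fly midgut. FOXO is the transcription factor at the end of the insulin pathway: insulin signalling keeps it out of the nucleus, and when signalling is low it enters and activates genes such as Thor, the translation repressor 4E-BP, and InR, the insulin receptor. Fly mtDNA encodes core subunits of the respiratory chain, so its mutation disturbs oxidative phosphorylation, and the series asks what FOXO contributes to the response.

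The mutant replicates were libraries of different kinds. Ribosomal RNA genes took 30.8% of the counts in mutant replicate 1 but 79.6% in mutant replicate 2, 82.5% in knockdown replicate 1 and 83.8% in knockdown replicate 2. Counts outside rRNA genes were 19184494, 7561200, 6326615 and 4443675 in the same order, of totals of 27445243 to 36996623. Control replicate 1 was also low in rRNA, at 18.2%, and the other control libraries held 79.4 to 82.3%. The fit therefore held a term for the library class (low or high rRNA share), estimated from the control and mutant replicates, and mutant replicate 2 carried 75% of the weight of the fitted mutant level. Levels are given as CPM, which are counts scaled to a common library size, with TMM factors, in the order mutant replicate 1, mutant replicate 2, knockdown replicate 1, knockdown replicate 2. Changes are fitted log2 differences, knockdown minus none, with standard error (SE), and a gene is said to have risen or fallen where edgeR's quasi-likelihood test gave an adjusted p under 0.05.

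The label of the cells was checked against markers of the gut. Over the 4 libraries the 12 progenitor markers summed to 265 to 277 CPM, the 15 enterocyte markers to 7514 to 15253 CPM, the 19 enteroendocrine markers to 179 to 304 CPM and the 16 visceral muscle markers to 1697 to 3115 CPM. The stem cell and enteroblast factor esg had 18.5, 20.1, 25.6 and 29.1 CPM. RNA of genes that mark other gut cells was thus present in every library, and in such bulk material fewer cells of a type and less RNA per cell cannot be told apart. The 12 tested markers of fat body, hemocytes and trachea summed to 139 CPM in mutant replicate 1 and to 31.7 to 43.5 CPM in the other 3, where the fat body marker Lsp2 had 0 counts. A count of 0 allows up to 3 counts, or 0.107 to 0.174 CPM, for counting error alone.

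The targeted gene did not pass the test of a lower level. The foxo transcript (FBgn0038197) had 49.8, 66.6, 52.1 and 53.1 CPM, so the knockdown libraries lay between the mutant replicates. The fitted log2 change was −0.37 (SE 0.13, adjusted p = 0.274). With control mtDNA the change was −0.28 (adjusted p = 0.517). Where along foxo the construct acts is not given, and foxo protein was not measured, so the sequencing does not check the label.

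Of FOXO's textbook targets, neither Thor nor InR passed the test in the fit of all libraries. Thor had 55.3, 252, 184 and 189 CPM, with a log2 change of −0.26 (SE 0.16, adjusted p = 0.746). Both knockdown libraries were under mutant replicate 2 but over mutant replicate 1, and without mutant replicate 2 the change was 0.31. With the low-rRNA libraries left out Thor did pass, with −0.44 (adjusted p = 0.0124 by edgeR). InR had 49.0, 104, 128 and 116 CPM, with a log2 change of 0.29 (SE 0.13, adjusted p = 0.471). Of 28 tested members of a list of the insulin and TOR pathway with FOXO and its known targets, 1 rose and 0 fell, against 1.9% of all genes called in this comparison. By unadjusted p under 0.05 the same test marked 4 higher and 6 lower, and DESeq2 and limma-voom each called 2 higher and 1 lower. The member that rose was tobi, an alpha-glucosidase of the gut and known target of insulin-like signalling, described with the carbohydrases below. The list's median log2 change was −0.09, beside 0.01 over all 11561 genes tested.

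Between the mutant mtDNA groups with and without FOXO knockdown, 220 of the 11561 genes tested, or 1.9%, differed. There were 88 rises (0.761%), with a median log2 change of 1.09, and 132 falls (1.14%), with a median of −0.81. A change of more than 1 on the log2 scale was fitted for 49 of the rises and 42 of the falls. In all 220 genes both knockdown replicates lay on the fitted side of mutant replicate 2, which held for 69.7% of all genes. This was largely set by the selection, since mutant replicate 2 carried 75% of the weight of the fitted mutant level. The comparisons given next reuse the same libraries for genes selected in them, so they are no separate support. In 76 rises and 112 falls the knockdown libraries also did not overlap with either mutant replicate, against 43.8% of all genes. With the low-rRNA libraries left out (mutant replicate 2 alone against the knockdown replicates), 85 of the rises and 126 of the falls were called again. Without mutant replicate 2, all 220 kept their direction, and 57 rises and 74 falls were called again. The calls depend on the class term: when it was left out, 0 genes passed in edgeR and 643 had an unadjusted p under 0.05, although 83 of the rises and 130 of the falls kept their direction.

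**Figure D1:**
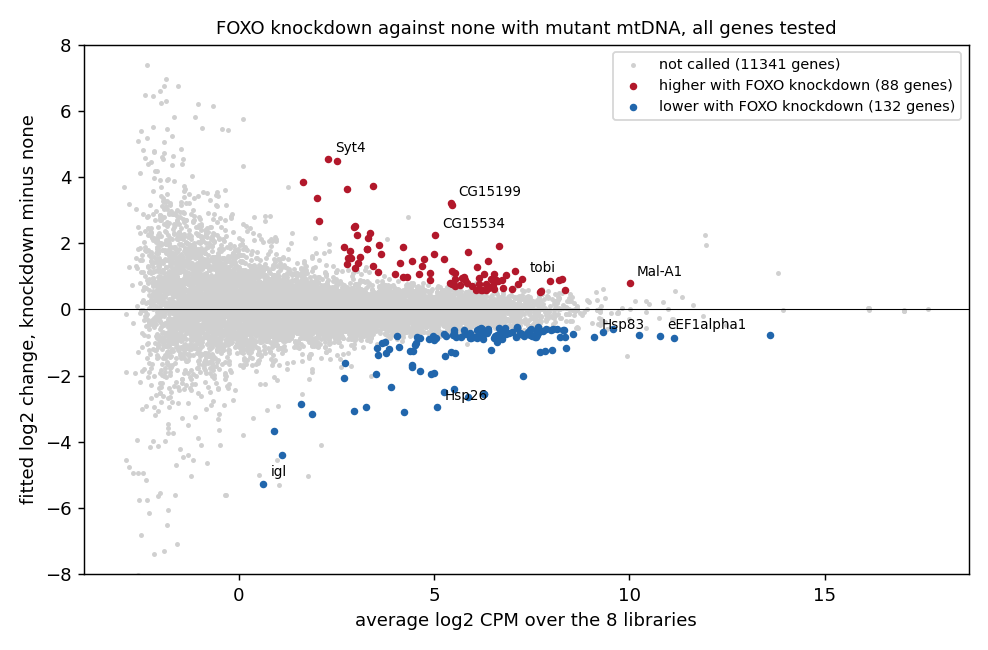
Fitted log2 change with FOXO knockdown in mutant mtDNA libraries (vertical axis) against the average log2 CPM over the 8 libraries (horizontal axis). Each point is 1 gene, with the 88 rises in red and the 132 falls in blue, and 1 gene lies beyond the plotted range. The largest falls of well-expressed genes (log2 CPM of 4 or more) included Hsp26, and CG15199 had the largest rise among them.

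Heat shock genes were 5 of the 12 largest falls among well-expressed genes. These are genes whose log2 CPM averaged 4 or more over the 8 libraries. For Hsp26, Hsp68, Hsp23 and Hsp70Bbb that average owed much to the low-rRNA libraries. Hsp26 had 105 and 127 CPM in replicate 1 of control and mutant mtDNA and 1.62 to 15.7 CPM in the others. Hsp70Bbb had 33.2 and 101 CPM against 0.174 to 4.50 CPM. Their level in the knockdown libraries was low. Heat shock proteins are chaperones that bind unfolded proteins, and most are induced when proteins are damaged. Of 24 tested members of the heat shock and co-chaperone list, 11 fell and 0 rose, against 1.14% of all genes falling, and the list's median log2 change was −0.76. The falls covered the small heat shock proteins Hsp22, Hsp23, Hsp26 and Hsp27, the Hsp70 family members Hsp68, Hsp70Aa and Hsp70Bbb, the Hsp90 protein Hsp83, the Hsp40 co-chaperone DnaJ-1, the BAG-family co-chaperone stv and the mitochondrial chaperonin Hsp60A.

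Hsp26 (FBgn0001225) had 127, 15.7, 2.01 and 1.62 CPM. Both mutant libraries were far above both knockdown libraries, and mutant replicate 2 alone was 8.63 times the knockdown mean of 1.81 ± 0.271 (SD, n = 2). The fitted log2 change was −2.94 (SE 0.32, adjusted p = 7.12e-04 by edgeR). Hsp68 (FBgn0001230) had 204, 21.9, 3.60 and 3.59 CPM, and fell by 2.66 on the log2 scale (SE 0.18, adjusted p = 1.5e-05). Its knockdown replicates were almost equal, and mutant replicate 2 was 6.09 times their mean. Its exons overlap CG6000 and lncRNA:CR44097 on the other strand, and the strand setting of the counting is not given. Hsp22, a small heat shock protein of the mitochondrial matrix, had 311, 53.2, 8.92 and 9.67 CPM, a fall of 2.56 (SE 0.14, adjusted p = 4.71e-06). CG4456 overlaps it on the same strand and had nearly the same counts, so both are 1 signal. Hsp23 had 150, 14.6, 2.41 and 3.36 CPM, and fell by 2.40 (SE 0.27, adjusted p = 7.51e-04). In each of these genes the low-rRNA mutant replicate was the highest, and control replicate 1, also low in rRNA, was high as well, at 105 CPM for Hsp26 and 199 CPM for Hsp68.

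The stress-inducible Hsp70 genes were less certain. Hsp70Aa had 44.0, 5.30, 0.614 and 0.927 CPM, with no overlap between the groups, and fell by 2.96 (SE 0.52, adjusted p = 0.0129 by edgeR). Hsp70Bbb had 101, 4.38, 1.15 and 0.174 CPM, the last from 3 counts, and fell by 3.08 (SE 0.67, adjusted p = 0.0379). With the low-rRNA libraries left out its adjusted p was 0.101. These are near-identical copies whose reads could be divided between them in the counting. The other copies did not pass: Hsp70Ab had a log2 change of −1.71 (adjusted p = 0.115) and Hsp70Bc of −2.01 (adjusted p = 0.207).

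The abundant chaperones fell less in proportion. Hsp83, with 986, 569, 311 and 313 CPM, fell by 0.82 (SE 0.12, adjusted p = 0.00586 by edgeR). Hsp60A, which folds proteins in the mitochondrial matrix, had 207, 49.9, 32.5 and 30.1 CPM and fell by 0.83 (SE 0.17, adjusted p = 0.0299). The constitutive Hsc70-4 had 1456, 572, 441 and 448 CPM, with a log2 change of −0.38 that did not pass (adjusted p = 0.236). DnaJ-1, with 156, 181, 109 and 116 CPM, and stv, with 126, 206, 134 and 138 CPM, fell by 0.75 and 0.56. In DnaJ-1 the knockdown libraries were the lowest, while in stv they lay between the mutant replicates.

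Over the settings that kept the class term, 8 to 14 members of the list were called lower, and with the low-rRNA libraries left out 10 were. Without the class term 0 were called, with a list median of −1.83. Hsp27, Hsp83, Hsc70-4, DnaJ-1 and stv are given here as list members after their values were seen.

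**Figure D2:**
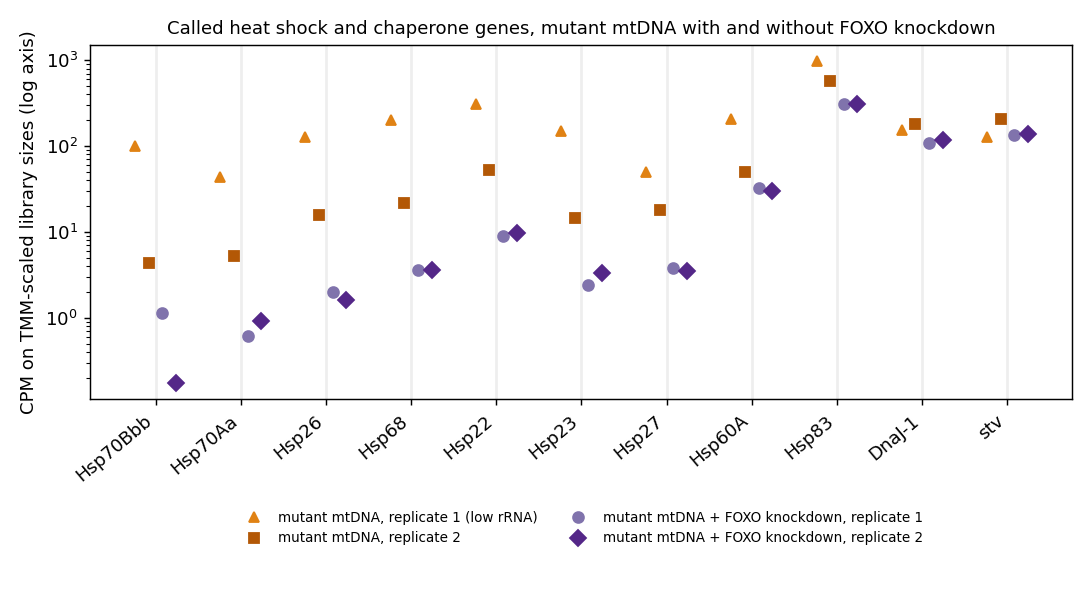
CPM of the 11 heat shock and chaperone genes that fell, on a log axis, with 1 point for each of the 4 libraries. Both knockdown libraries lie below both mutant libraries in each gene but stv, and the low-rRNA mutant replicate (triangles) lies highest in every gene but DnaJ-1 and stv.

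Cytosolic ribosomal protein genes, the protein components of the ribosome that makes all nuclear-encoded proteins, shifted downward as a group by small amounts. Of 83 tested, 29 fell and 0 rose, against 1.14% of all genes falling. The median log2 change was −0.51, beside 0.01 over all genes. The fitted change was positive in 1 of the 83 genes, and in 5894 of all 11561 genes tested. Both knockdown replicates lay on the fitted side of mutant replicate 2 for 82 of the 83, which held for 69.7% of all genes. They were below both mutant replicates for 79, which held for 22.3% of all genes. Lying below mutant replicate 1 says little here, because these genes stood high in both low-rRNA libraries, as the sums below show. Summed over the 83 genes, the level was 24394 CPM in mutant replicate 1, 8006 in mutant replicate 2, and 5414 and 5605 in the knockdown replicates. Control replicate 2, of the high-rRNA class, had 6673 CPM and the control knockdown libraries 7056 and 7426, so the mutant knockdown libraries had the lowest sums of the 8. The summed level moved with the library class, since control replicate 1 also stood high at 20407 CPM.

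The largest ribosomal protein falls were modest. RpS14a had 187, 32.6, 17.2 and 19.6 CPM, and fell by 0.86 (SE 0.15, adjusted p = 0.0129 by edgeR). RpL22 had 475, 170, 101 and 102 CPM, and fell by 0.78 (SE 0.12, adjusted p = 0.00758). RpL23A had 465, 179, 109 and 119 CPM, and fell by 0.77 (SE 0.14, adjusted p = 0.0152). RpL11, with 220, 66.2, 41.7 and 39.6 CPM, and RpS26, with 294, 73.0, 43.9 and 43.5 CPM, fell by 0.76 and 0.74. In all 5 genes the knockdown replicates were close to each other and below both mutant replicates. RpL22 and RpL23A overlap noncoding genes on the same strand.

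How many ribosomal protein genes passed depended on the libraries and the scaling, while the median stayed at −0.42 to −0.65 in every setting with the class term. Left without knockdown replicate 1, knockdown replicate 2 or mutant replicate 2, the fit called 2, 4 and 16 lower; without mutant replicate 1 it called 54, without control replicates 1 and 2 in turn 49 and 52, without both low-rRNA libraries 44, on total counts 5, and 0 without the class term.

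**Figure D3:**
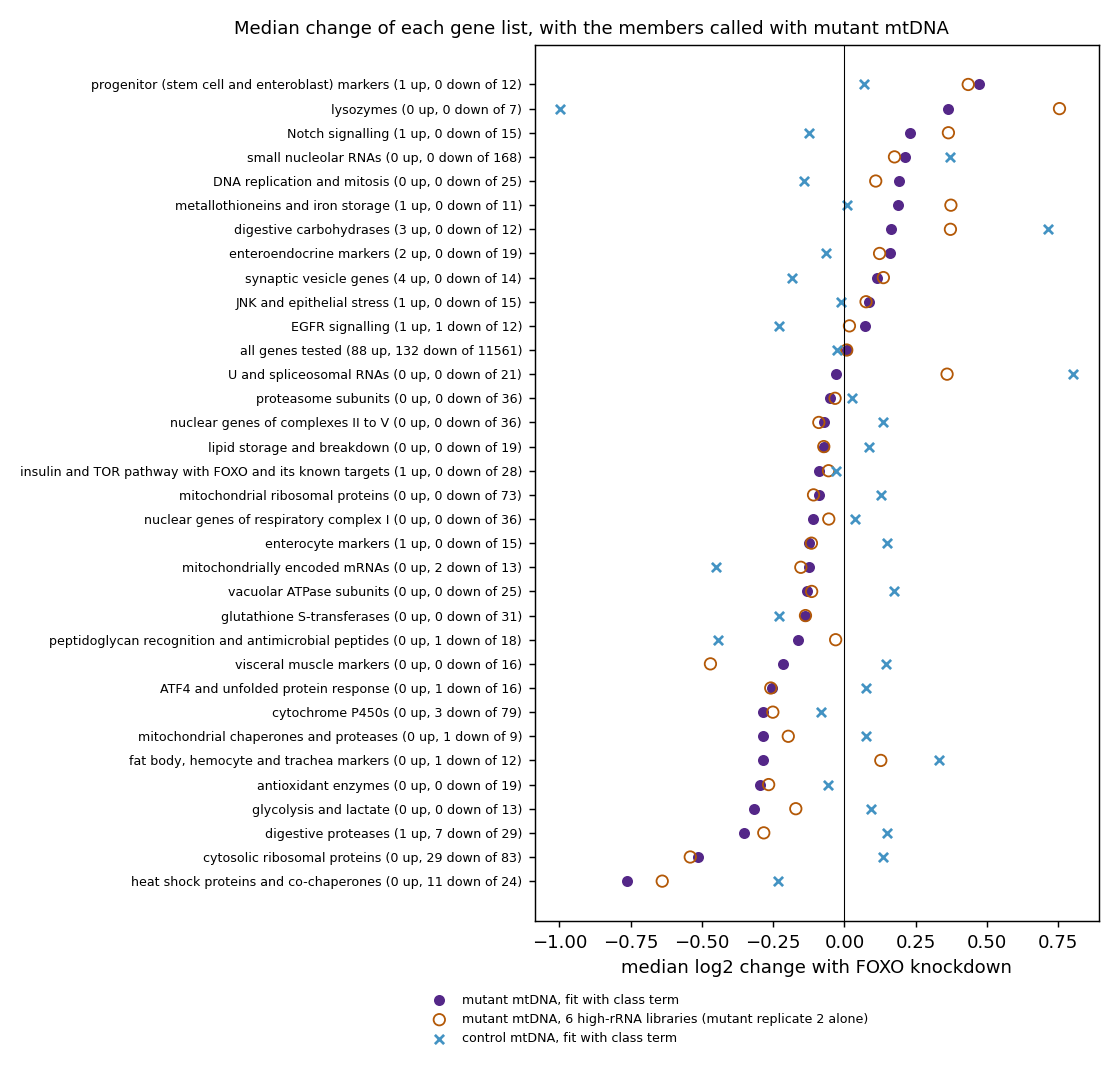
Median log2 change with FOXO knockdown in each of the 33 gene lists and over all genes tested, with the number of members that rose and fell with mutant mtDNA. Filled points are the mutant mtDNA fit, open circles the fit without the low-rRNA libraries and crosses the control mtDNA fit; the heat shock and cytosolic ribosomal protein lists lie lowest with mutant mtDNA.

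Digestive enzymes of the midgut moved in both directions. Of 29 tested digestive proteases 7 fell and 1 rose, against 1.14% and 0.761% of all genes, with a median log2 change of −0.35. DESeq2 called 13 lower and limma-voom 12. The falls were all Jonah proteases, a family of serine proteases of the midgut. Jon44E had 34.5, 34.1, 9.45 and 10.7 CPM, so that both mutant libraries were about equal and both knockdown libraries far lower, and it fell by 1.75 (SE 0.19, adjusted p = 7.51e-04 by edgeR). Its exons overlap CG8586 on the other strand. Jon25Bii had 262, 90.3, 43.5 and 37.6 CPM and fell by 1.24 (SE 0.14, adjusted p = 7.51e-04). Jon25Bi, with 306, 78.4, 38.3 and 47.7 CPM, and Jon99Ci, with 216, 116, 68.2 and 60.2 CPM, fell by 0.98 and 0.86.

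Jon66Ci went the other way, with a dependence on the library class. It had 121, 11.7, 31.8 and 30.5 CPM, so the knockdown libraries were above mutant replicate 2 and below mutant replicate 1. The fitted rise was 1.17 (SE 0.21, adjusted p = 0.0125 by edgeR), and without the class term the change was −1.10.

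Of 12 carbohydrases, which split dietary sugars, 3 rose and 0 fell, against 0.761% of all genes rising. Mal-A1, a maltase, had 1296, 741, 1356 and 1326 CPM, and rose by 0.79 (SE 0.14, adjusted p = 0.0125 by edgeR). Both knockdown libraries were above both mutant libraries, though only slightly above mutant replicate 1. Mal-A8 had 338, 305, 472 and 437 CPM, and rose by 0.59 (SE 0.12, adjusted p = 0.0292). tobi had 311, 97.0, 169 and 173 CPM, and rose by 0.91 (SE 0.13, adjusted p = 0.00446). Its knockdown libraries lay between the mutant replicates, and without the class term the change was −0.26. On total counts 0 carbohydrases were called, without mutant replicate 2 or knockdown replicate 1 only 1, without knockdown replicate 2 only 2, and without the low-rRNA libraries 5.

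The other large falls of well-expressed genes, beside Jon44E, were those of 5 genes. CG6295 (FBgn0039471), a predicted lipase, had 337, 243, 57.7 and 58.1 CPM, with mutant replicate 2 at 4.19 times the knockdown mean of 57.9 ± 0.308 (SD, n = 2). It fell by 2.02 (SE 0.12, adjusted p = 6.04e-06 by edgeR). CG17192, of the same family, had 56.2, 85.2, 16.4 and 13.5 CPM and fell by 2.49 (SE 0.16, adjusted p = 9.53e-06). Further members of the family, looked up after the values were seen, went both ways: CG6283 rose by 1.28 and CG6277 by 0.98, while CG6296 was called lower. CG6296 had 24.1 and 88.0 CPM in the mutant replicates and a knockdown mean of 33.3 CPM, so its fall shows only against mutant replicate 2. The alkaline phosphatase gene Alp2 had 27.5, 31.3, 14.04 and 9.56 CPM and fell by 1.86 (SE 0.36, adjusted p = 0.0201). CG9394 had 99.9, 41.5, 11.7 and 12.2 CPM, a fall of 1.93 (SE 0.19, adjusted p = 3.28e-04). The planar polarity gene mwh, which restricts actin outgrowth in wing cells, had 88.7, 47.8, 11.9 and 14.3 CPM and fell by 1.94 (SE 0.22, adjusted p = 8.32e-04). In CG6295, CG17192, Alp2, CG9394 and mwh both mutant libraries were above both knockdown libraries.

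Among well-expressed genes, the largest rise was that of CG15199 (FBgn0030270), with 22.7, 6.87, 49.0 and 59.1 CPM. Both knockdown libraries were above both mutant libraries, and the fitted rise was 3.21 (SE 0.23, adjusted p = 2.41e-05 by edgeR). CR44054, an antisense RNA that overlaps CG15199, had nearly the same levels and rose by 3.16, and without a stated strand setting the pair is 1 signal. CG15534 had 18.8, 12.6, 53.6 and 55.7 CPM, and rose by 2.25 (SE 0.18, adjusted p = 4.14e-05). CG16826 had 126, 27.2, 82.9 and 83.6 CPM. Its fitted rise was 1.91 (SE 0.24, adjusted p = 0.00171). In CPM the rise of CG16826 shows only against mutant replicate 2, since mutant replicate 1 was higher than both knockdown libraries. With mutant replicate 2 left out and the class term kept, the fitted change was 2.90, and without the class term it was 0.12.

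Mmp2, a matrix metalloproteinase that remodels the matrix around cells, had 5.46, 8.71, 27.6 and 33.5 CPM. Both knockdown libraries were several-fold above both mutant libraries, at 3.51 times mutant replicate 2 on average. The rise was 1.88 (SE 0.21, adjusted p = 7.51e-04 by edgeR). Mmp2 was the 1 call among 15 genes of a JNK and epithelial stress list, where 1.9% of all genes were called. CG6967, whose current symbol is Mov10, had 12.5, 27.0, 96.8 and 96.0 CPM and rose by 1.72 (SE 0.15, adjusted p = 1.39e-04). Sema2a, a secreted guidance cue of the semaphorin family, had 12.2, 8.86, 27.996 and 28.8 CPM and rose by 1.47 (SE 0.22, adjusted p = 0.00586). Both were higher in both knockdown libraries than in either mutant library. The neighbouring genes CG16986 and CG16985 rose by 1.69 and 1.51, CG18404 by 1.53, CG43055 by 1.46 and CG8353 by 1.42, each without overlap between the groups. Mmp2, CG6967, CG16986 and CG16985 overlap genes on the other strand and CG8353 overlaps CG8360 on the same strand, so their reads are uncertain.

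**Figure D4:**
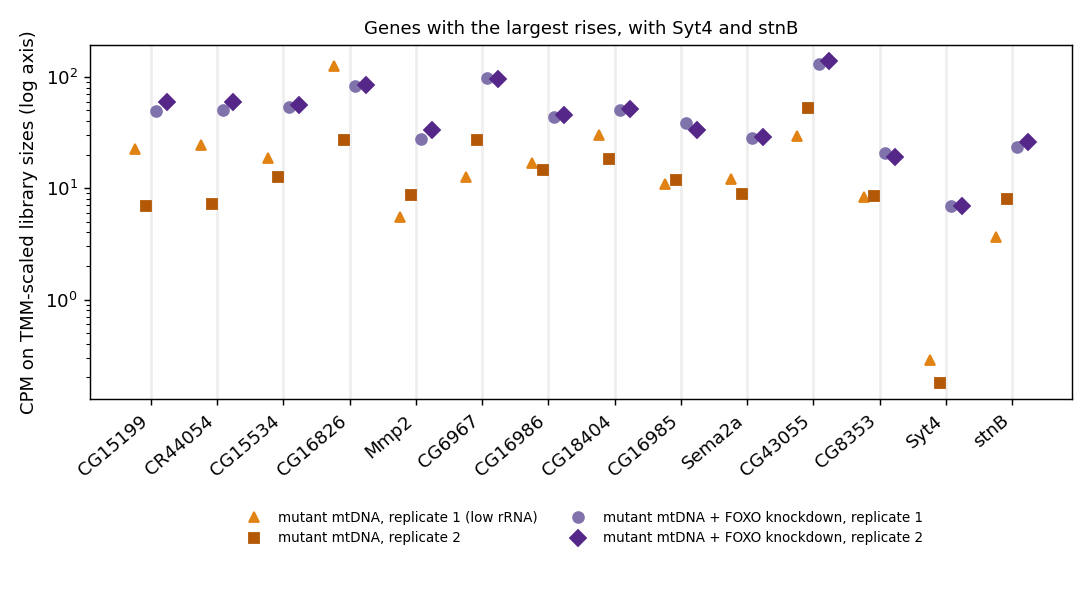
CPM of the 12 genes with the largest rises among well-expressed genes, with Syt4 and stnB, on a log axis and with 1 point for each of the 4 libraries. Both knockdown libraries lie above both mutant libraries in each gene except CG16826, in which mutant replicate 1 is the highest at 126 CPM.

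Genes of secretory and nerve-like cells included a sharp rise. Syt4 (FBgn0028400), a synaptotagmin of vesicle release, had 19 and 5 counts in the mutant libraries and 170 and 120 in the knockdown libraries. These are 0.288, 0.178, 6.96 and 6.95 CPM, so the transcript was near the limit of detection without knockdown. The fitted rise was 4.55 (SE 0.53, adjusted p = 9.05e-04 by edgeR). The stoned gene pair stnA and stnB, needed for recycling of synaptic vesicles and transcribed together, had the same counts, with 3.64, 8.00, 23.5 and 26.1 CPM and a rise of 1.83 (SE 0.29, adjusted p = 0.00801). Syx1A, a membrane fusion protein, had 34.1, 76.7, 104 and 114.8 CPM and rose by 0.60 (SE 0.14, adjusted p = 0.0468). It overlaps eIF4EHP on the same strand. Of 14 synaptic vesicle genes 4 rose, against 0.761% of all genes, and 0 fell, but the stoned pair is 1 set of reads, which leaves 3 separate signals. On total counts 1 was called.

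Of 19 enteroendocrine markers edgeR called 2 higher, Syt4 and AstC, against 0.761% of all genes, and 0 lower, with a list median of 0.16. DESeq2 and limma-voom each called 2 higher and 1 lower. AstC, the peptide hormone allatostatin C, had 8.50, 23.1, 42.6 and 44.1 CPM and rose by 1.10 (SE 0.20, adjusted p = 0.0138 by edgeR). The summed level of the 19 markers was 179, 269, 304 and 295 CPM, and its part in the rise of AstC was not tested.

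Among 12 progenitor markers edgeR called 1 higher and 0 lower, against 0.761% and 1.14% of all genes. A list with 1 call is given for that gene, not as a result about the list. E(spl)m3-HLH, a Notch target that represses differentiation genes, had 9.32, 1.39, 5.08 and 6.544 CPM, so the knockdown libraries lay between the mutant replicates, and rose by 2.17 (SE 0.33, adjusted p = 0.00609 by edgeR). It was also the 1 rise among 15 Notch signalling genes, of which 0 fell, beside the same shares of all genes. The stem cell factor esg had a log2 change of 0.55 (SE 0.18, adjusted p = 0.215), with both knockdown libraries above both mutant libraries. Dl, the Notch ligand that marks stem cells, had 20.2, 6.94, 8.51 and 9.44 CPM and a log2 change of 0.23 (SE 0.21, adjusted p = 0.926). Without mutant replicate 2 the change of Dl was −0.10. The list's median log2 change of 0.47 was the highest of the 33 lists, and 9 of its 12 members had a positive change. DESeq2 called 2 members higher and 1 lower, and limma-voom 1 higher and 1 lower. The summed level of 265 to 277 CPM differed little between the groups. That sum rests most on hdc, with 7935, 4318, 2843 and 2196 counts, more than any other member. In the EGFR pathway, which drives stem cell growth, the transcription factor gene pnt rose by 0.73, from 22.1 and 41.5 to 68.0 and 64.9 CPM. The feedback inhibitor gene kek1 fell by 2.08, from 16.3 and 11.3 to 2.37 and 3.13 CPM. The other 10 of 12 genes were not called, where 1.9% of all genes were.

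The mRNAs encoded by mtDNA gave 2 falls and 0 rises among 13, where 1.14% of all genes fell. Outside that list, and given after its values were seen, the mtDNA-encoded mt:tRNA:Tyr-GTA was also called lower. It had 0.455 and 34.7 CPM in the mutant replicates and a knockdown mean of 7.35 CPM. The complex I subunit gene mt:ND4 had 2.20, 67.6, 26.2 and 29.8 CPM, and mt:ND1 had 6.12, 1706, 1074 and 1122 CPM. They fell by 1.28 (SE 0.16, adjusted p = 0.00153 by edgeR) and 0.76 (SE 0.15, adjusted p = 0.0253). With control mtDNA the same test gave mt:ND4 −1.12 (adjusted p = 0.00593) and mt:ND1 −0.69 (adjusted p = 0.0801, not called). There 2 of the 13 were called lower, with a list median of −0.45, beside −0.13 with mutant mtDNA. Both knockdown libraries were below mutant replicate 2 and far above mutant replicate 1, in which the mt:ND1 level was lower by orders of magnitude. In CPM the falls of mt:ND4 and mt:ND1 thus show only against mutant replicate 2. With that library left out and the class term kept, the fitted changes were −1.31 and −1.14. Without the class term the change of mt:ND1 was 0.36. mt:ND4 overlaps mt:ND4L on the same strand.

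The lists of nuclear genes of mitochondrial function gave few calls, in a comparison where 0.761% of all genes rose and 1.14% fell. Such genes outside the lists are not counted here, among them kdn, Mpcp2 and Pdk, which were called lower. No member was called among 36 nuclear genes of complex I (median −0.11), 36 of complexes II to V (−0.07), 73 mitochondrial ribosomal proteins (−0.09), 13 glycolysis genes (−0.32) and 19 lipid genes (−0.07). In the glycolysis list 0 of 13 changes were positive. Of 9 mitochondrial chaperones and proteases 1 fell, the Hsp60A described above. No member was called either among 7 lysozymes (0.36), 31 glutathione S-transferases (−0.14), 19 antioxidant enzymes (−0.30), 25 replication and mitosis genes (0.19), 36 proteasome subunits (−0.05), 25 vacuolar ATPase subunits (−0.13), 16 visceral muscle markers (−0.21), 168 small nucleolar RNAs (0.21) and 21 U and spliceosomal RNAs (−0.03). Over these 14 lists of 525 genes, the same edgeR test marked 18 higher and 28 lower at an unadjusted p under 0.05, DESeq2 called 5 and 8, limma-voom 1 and 6, and the fit without the low-rRNA libraries 5 and 10. Of the last, 1 higher and 6 lower were visceral muscle markers, whose median log2 change there was −0.47, with mutant replicate 2 the library of the highest muscle sum (3115 CPM, against 2300 and 2123 with knockdown and 1697 in mutant replicate 1).

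A few defence and stress genes passed, in a comparison where 0.761% of all genes rose and 1.14% fell. Lists with 1 call are again given for that gene only. Of 79 cytochrome P450 genes 3 fell, against 1.14% of all genes, and 0 rose: Cyp4p2 by 0.88, Cyp6d5 by 0.64 and Cyp6a23 by 0.59, the list's median being −0.28. Called lower were 0 on total counts and 0 without either knockdown replicate, 1 without mutant replicate 2, and 7 without either control knockdown replicate. PGRP-SC1b, an amidase that digests bacterial peptidoglycan, had 22.9, 14.4, 6.14 and 6.78 CPM and fell by 1.38 (SE 0.27, adjusted p = 0.0203 by edgeR), the 1 call among 18 recognition and antimicrobial genes. MtnC, a metallothionein that binds metal ions, had 30.3, 54.5, 111 and 118 CPM and rose by 0.95 (SE 0.16, adjusted p = 0.00984), the 1 call among 11 genes. Xbp1, the transcription factor of the unfolded protein response, fell by 0.52 (SE 0.11, adjusted p = 0.0416), from 190 and 254 to 180 and 180 CPM, and the other 15 genes of the ATF4 and unfolded protein response list were not called. Among markers of other cells, Yp1, a yolk protein made in fat body and ovary, fell by 1.18, from 48.0 and 10.5 to 4.95 and 4.23 CPM, with an adjusted p of 0.0726 when the low-rRNA libraries were left out. Of the 15 enterocyte markers edgeR called 1, the rise of the protease Jon66Ci, while DESeq2 and limma-voom each called 1 higher and 4 lower.

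The same knockdown was compared in flies with control mtDNA, in the same fit but in other libraries, which share with these the class term and the estimate of the spread. There 66 genes differed (0.571%), 46 higher (0.398%) and 20 lower (0.173%) with knockdown. This balance turned without control knockdown replicate 2, when 154 genes were called higher and 469 lower. Called in the same direction in both backgrounds were 17 rises, which are 19.3% of the rises with mutant and 37.0% of those with control mtDNA, and 12 falls, which are 9.09% and 60% of the falls. Syt4 rose by 5.02 with control mtDNA and CG15534 by 2.43, and Hsp68 and Hsp22 fell by 2.41 and 1.89. Hsp23 fell by 2.83 there.

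The difference between the backgrounds was tested directly. It passed in 59 genes (0.51%). The change was higher with mutant than with control mtDNA in 15 of these and lower in 44, and 38 were also called with mutant mtDNA. Here too the balance rested on 1 library: without control knockdown replicate 2 the change was higher with mutant mtDNA in 341 genes and lower in 169. Cytosolic ribosomal proteins, 83 of the 11561 genes tested, made up 11 of the 44 lower ones. Their median log2 change was 0.14 with control mtDNA, where edgeR called 0. RpL23A changed by −0.77 with mutant and 0.49 with control mtDNA, a difference of −1.26 (SE 0.18, adjusted p = 0.0116 by edgeR). Of the heat shock list, only Hsp27 passed the test of the difference in this fit (−1.59, adjusted p = 0.0339). Hsp26 did not, with a fall of 2.94 against 1.17 and a difference of −1.78 (SE 0.41, adjusted p = 0.095).

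Mmp2 rose with mutant mtDNA, from 5.46 and 8.71 to 27.6 and 33.5 CPM, while with control mtDNA it had 13.2 and 17.3 without and 18.3 and 23.2 with knockdown. The difference of the log2 changes was 1.69 (SE 0.26, adjusted p = 0.0183 by edgeR). The stoned pair differed by 2.70 (SE 0.39, adjusted p = 0.0142), with a control mtDNA change of −0.87 that did not pass. tobi rose in both backgrounds, by 2.63 with control and 0.91 with mutant mtDNA, a difference of −1.72 (SE 0.17, adjusted p = 0.00377). In control libraries it went from 106 and 25.0 to 166 and 170 CPM, so the knockdown libraries of both backgrounds ended at about the same level. The frost gene Fst was at 25.7 and 47.4 CPM with control mtDNA, 128 and 121 with its knockdown, 80.1 and 178 with mutant mtDNA and 148 and 146 with its knockdown. Its change was 1.32 with control and −0.21 with mutant mtDNA, the latter not called, and the difference was −1.53 (SE 0.16, adjusted p = 0.00402). On total counts 0 differences passed in edgeR, and 695 had an unadjusted p under 0.05.

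**Figure D5:**
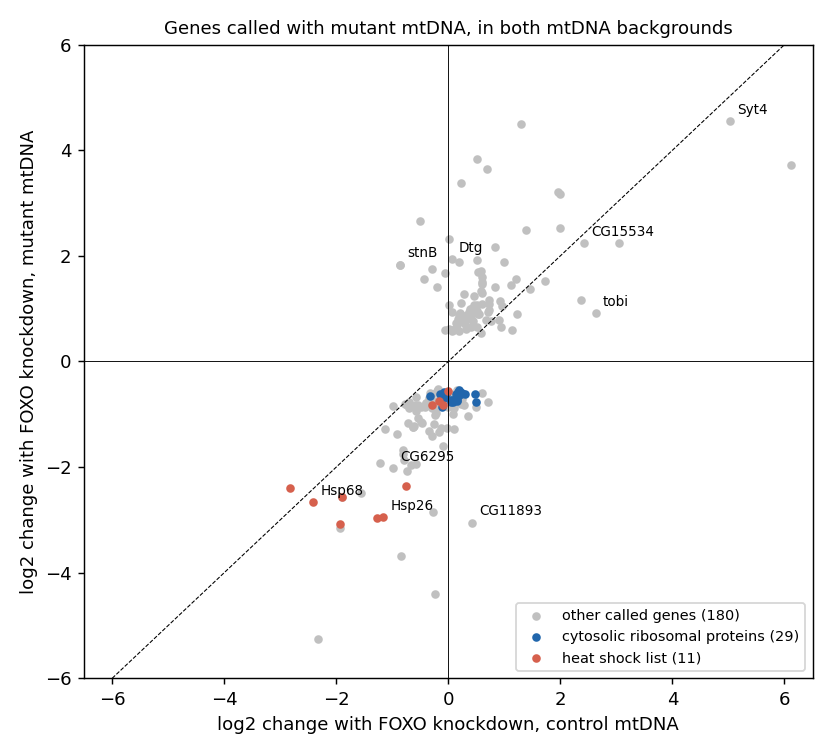
Log2 change with FOXO knockdown with mutant mtDNA (vertical) against that with control mtDNA (horizontal) for the 220 genes called with mutant mtDNA, with equal changes along the dashed line. The 29 ribosomal proteins (blue) lie below 0 on the vertical axis and around 0 on the horizontal one, and of the 11 heat shock genes (red), all below 0 on the vertical axis, 3 also fell with control mtDNA.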

How the data were processed

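The authors deposited raw counts per gene, as whole numbers without normalization, for 17473 genes in 8 libraries. Per the submitters' processing notes FastQC, cutadapt, HISAT2, featureCounts and limma were used; their versions, the genome build, the annotation and the strand setting are not given in the sources used here, so no coordinates are printed. A current annotation served only for biotypes, overlaps and symbols (17331 identifiers matched).

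The tests were made on these counts in R 4.3.3 (edgeR 4.0.16): filterByExpr (11561 genes kept), TMM, quasi-likelihood F-tests (two-sided) in a fit of all 8 libraries with 4 group means and a class term (rRNA share under 50%), and Benjamini-Hochberg adjustment over all genes tested at 0.05, with 3 residual degrees of freedom. Alternatives used DESeq2 1.42.0, limma-voom (limma 3.58.1), other scalings, filters, class choices, a replicate block and leaving out each library; the effect is given at the end. Scaling to counts outside rRNA genes was added after seeing the data. Scripts were tested on simulated data. Figures were made with Python 3.11.15, pandas 2.3.3 and matplotlib 3.10.9.

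The comparison, the 33 gene lists, the class term and the naming rule were chosen with earlier results of these data known. Genes named are the 12 largest rises and 12 largest falls among called genes whose log2 CPM averaged 4 or more, with both knockdown replicates on the fitted side of mutant replicate 2; foxo, Thor, InR, esg, Dl and Syt4; up to 5 called members per list; and the 6 smallest p-values of the difference at that level. Other genes are given as named after their values were seen, among them the uncalled list members. Total counts were 21133996 to 39327066 per library, and floors of 3 counts cover counting error only, since PCR reads are not independent molecules. Replicates differed by more than sampling noise, with a median chi-square of 1.98 per gene between the knockdown replicates and 146 between the mutant replicates, where sampling alone gives 0.455.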

Additional observations from a re-analysis of the deposited data

Results flagged for a closer look

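The change with FOXO knockdown differed between mutant and control mtDNA, by the test of the difference itself, in 59 genes, of which the named ones follow as log2 differences (mutant minus control mtDNA, adjusted p under 0.05 by edgeR's quasi-likelihood test). Higher with mutant mtDNA were the changes of stnB and stnA (2.70 each, the same reads), Mmp2 (1.69), CG16986 (1.16) and CG6967 (1.14). Lower were those of tobi (−1.72), Fst (−1.53), Mal-A3 (−1.42), CG17571 (−1.38), Gal (−1.28), RpL23A (−1.26), Cyp6a23 (−1.18), CG6295 (−1.04), RpS26 (−0.90), RpL22 (−0.86) and Cyp6d5 (−0.82).

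Mal-A3, a maltase, rose by 0.99 with control mtDNA and had a change of −0.43 (adjusted p = 0.175) with mutant mtDNA. Gal, a beta-galactosidase gene, rose by 0.91 with control mtDNA and had −0.36 (adjusted p = 0.309). CG17571 fell by 1.28 with mutant mtDNA, from 642 and 116 to 51.5 and 53.2 CPM, and had 0.10 (adjusted p = 0.854) with control mtDNA. CG6295 fell in both backgrounds, by 2.02 and 0.98. With 2 replicates per group, no sample could be checked against the others of its group.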

How the results depend on the processing

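Counts of genes called are given for FOXO knockdown with mutant mtDNA, with control mtDNA and for their difference, which were 220, 66 and 59. Without the class term they were 0, 0 and 0 (643, 622 and 215 at an unadjusted p under 0.05), and in the 4 libraries of each background alone 0 and 0 (816 and 380). The 6 high-rRNA libraries gave 389, 236 and 188, no filter 446, 278 and 271, DESeq2 420, 200 and 281, limma-voom 357, 114 and 162, and total counts 101, 33 and 0 (695). Total counts shifted the median log2 change of all genes to −0.12 with mutant mtDNA, −0.27 with control mtDNA and 0.16 for the difference. On total counts outside rRNA genes 223 genes were called with mutant mtDNA, 120 higher and 103 lower against 88 and 132, and 39 differences, 21 higher and 18 lower. Leaving out each library gave 119 to 430, 65 to 623 and 45 to 510 calls, the highest for control mtDNA (154 higher, 469 lower) and for the difference (341 higher, 169 lower) both without control knockdown replicate 2; with mutant mtDNA 119 without knockdown replicate 1, 128 without knockdown replicate 2 and 430 without mutant replicate 1, the lone replicate being assumed to vary like the other groups. The replicate block gave 129, 60 and 53 calls, 68 higher and 61 lower with mutant mtDNA, with 4 ribosomal proteins, 8 heat shock genes and 0 cytochrome P450 genes lower; replicate numbers are not paired by the labels, and same-numbered mutant and knockdown libraries did not deviate together (r = −0.0048 across 11561 genes, which are not independent). RLE size factors, removal of rRNA genes and a filter of 5 CPM gave 229, 246 and 256 calls with mutant mtDNA.

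Among the 64 named genes these changes reversed without the class term, first in all 8 libraries and then in the 4 compared: Dl (−0.60, −0.58), Thor (0.28, 0.29), tobi (−0.26, −0.23), mt:ND1 (0.36, 0.37), Jon66Ci (−1.10, −1.07) and Fst (0.19, 0.20). Without mutant replicate 2 Dl (−0.10), Thor (0.31) and Fst (0.0072) reversed, the other end of the leave-one-out range being 0.36 for Dl, −0.44 for Thor and −0.29 for Fst, the last 2 without mutant replicate 1. The cause was not tested. Without the class term, in the 8 libraries as in the 4, 53 of the named genes kept their direction and lost the call; 15 did so without knockdown replicate 1, 11 without knockdown replicate 2, 10 without mutant replicate 2, 14 on total counts and 13 with the replicate block. Depth outside rRNA genes, 4443675 to 7561200 counts in 3 of the 4 libraries, limits genes of low level.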

Other observations

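Outside the lists, and chosen after their values were seen, some called genes had not been described above, and they are single genes, not a tested group. The elongation factor gene eEF1alpha1, whose protein brings aminoacyl-tRNA to the ribosome, had 2959, 2152, 1208 and 1208 CPM in the order used above and fell by 0.79 (SE 0.13, adjusted p = 0.00862 by edgeR), and eEF2, the elongation translocase, fell by 0.58, eEF1gamma by 0.68 and the initiation factor subunit gene eIF3m by 0.78. Tctp, a growth regulator, fell by 0.76. The 2 inhibitors of TOR signalling related to mammalian REDD1, scyl and chrb, fell by 0.74 and 0.72, and chrb differed between the backgrounds (adjusted p of the difference 0.0288). The drug efflux transporter genes Mdr50 and Mdr49 fell by 1.32 and 0.82.

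Genes picked in the same way among the rises follow. The stress transcription factor gene Atf3 had 92.3, 220, 385 and 410 CPM and rose by 0.90 (SE 0.12, adjusted p = 0.00316 by edgeR). The caspase gene Damm rose by 1.17, brk, a repressor of Dpp target genes, by 1.07, and Pvf1, a growth factor ligand, by 0.99. Dtg, named for its regulation by Dpp, had 3.82, 3.42, 14.7 and 12.05 CPM and rose by 1.94, with 0.06 with control mtDNA and an adjusted p of 0.0169 for the difference. Dscam4, a cell adhesion gene, rose by 2.24 with mutant and by a fitted 3.05 with control mtDNA.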
